A study of Glycine max with 54 samples.

Results

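Among the genes that soybean seeds use to handle amino acid nitrogen, 8 carry a name on the array studied here: the alanine aminotransferases ALAAT1, ALAAT2 and ALAAT3, the gene named ASP1, and 4 genes of essential amino acid synthesis, DHPS1, AK-HSDH, CGS2 and TSA. They were found as the probe sets whose only gene symbol in the array annotation is one of these names, which gave 12 of the 37744 probe sets on the array, for 8 of the 6029 genes that a single symbol names there. CGS2 has 4 of them, ALAAT1 has 2 and each other gene has 1. All 12 reached a log2 signal of 5 in all 54 arrays, and so all were among the 26482 probe sets tested.

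The study hybridised total RNA of whole developing soybean seeds to Affymetrix arrays, 1 array per sample, in 18 groups of 3. The groups are the cultivar Archer and the cultivar Minsoy in 2007 and again in 2008, and a high yield line and a low yield line in 2007, each at seed lengths of 2, 3.5 and 5-6 mm. The last pair are recombinant inbred lines from crossing both cultivars that mature alike and differ in yield, and all plants grew in the field. The study asked which genes differ between the lines in developing seeds. Because the high yield and the low yield line are 1 inbred line each, what separates them cannot be assigned to yield. In 2007 each line stood in a single row, so its replicates are samples of that row and hold no spread between rows. The p-values rest on 1 estimate of spread per probe set, pooled over the replicates of all 18 groups and both years. The 3 replicates of 2008 were sown in blocks at intervals, and the seed of both rows of a replicate was pooled. No treatment was given to any group.

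Alanine aminotransferases move the amino group between alanine and glutamate, which links seed nitrogen to pyruvate. Legume seeds receive much of their nitrogen as asparagine, which asparaginase splits into aspartate and ammonia. Aspartate is in turn the starting point for lysine, methionine and threonine, which together with tryptophan are essential in the diet. Soybean protein is known for its low content of the sulfur amino acid methionine.

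The names were checked against the RefSeq gene table, which held 7 of the 8 genes. It lists GM-ASNASE1 as another name of ASP1, so the gene is annotated as an asparaginase and not as an aminotransferase. ALAAT3 was not matched, and AlaAT3 stands there as another name of ALAAT2. ALAAT2 and ALAAT3 may therefore be the same gene, and their probe sets are reported apart. One more probe set, Gma.11067.1.S1_a_at, is annotated to both and falls outside the selection.

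Values are log2 signals, so a difference of 1 is a doubling of the signal. The arrays fall into 3 sets of 18 (parents of 2007, parents of 2008, recombinant lines of 2007) that were processed apart, as the values themselves show, and levels are compared only within a set and only within a probe set. In whole seeds, fewer cells of a type and less RNA per cell cannot be told apart. All 7 storage and maturation markers on the array had medians of 5 or more at 5-6 mm in every set, with summed log2 signals from 31.5 to 105 per array. At 2 mm none of the 7 reached that level in the parents of 2007 (sums from 14.7 to 18.6), 2 did in the parents of 2008 (18.8 to 99.7) and 5 in the recombinant lines (16.1 to 87.2). By a score of stage-dependent genes, 9 arrays sat closer to another length than their label: 1 in the parents of 2007, 4 in the parents of 2008 and 4 in the recombinant lines. In the recombinant set the actin control signal was also higher at the 3' end than at the 5' end by 1.22 to 3.36 (log2, median 1.60), against -0.81 to -0.06 in the parents of 2007 and -0.57 to -0.10 in those of 2008. A high difference is a usual sign of degraded RNA, and 4 arrays passed the limit of 2.5, all at 3.5 mm: high yield line replicates 1 and 3 and low yield line replicates 1 and 3. A second pair of actin controls did not rank all of these arrays high. Its difference was 9.33 and 9.52 in those of the high yield line, the highest of the recombinant set. It was 8.80 and 8.75 in those of the low yield line, the lowest of that set. On this pair the recombinant set lay lower (8.75 to 9.52) than the parents (9.95 to 10.46). The actin difference used below is that of the first pair. Of the other markers on the array, 3 or 4 of 4 for seed coat, 4 of 4 for pod or vegetative tissue and 3 of 3 for photosynthesis had medians of 5 or more at all lengths. The pod or vegetative markers moved with seed length in the parents of 2007, where their summed log2 signal was 42.7 to 45.0 at 2 mm, 38.4 to 44.7 at 3.5 mm and 29.7 to 38.7 at 5-6 mm, with no overlap between 2 mm and 5-6 mm. In the parents of 2008 it was 34.8 to 46.4, 39.2 to 43.5 and 35.0 to 44.2, and in the recombinant lines 37.8 to 48.9, 38.7 to 47.6 and 34.7 to 42.8, in the same order of lengths. The summed seed coat and photosynthesis markers overlapped between 2 mm and 5-6 mm in every set. The part of these markers in the results was not tested. For low yield line 3.5 mm replicate 3 the title and the description disagree on the line, the description naming the high yield one, and the title was followed. Some of the results that rest on these arrays are given with and without them. The members were not kept out of the stage score, which is built from genes that change with stage. Leaving out the arrays out of stage therefore favours larger differences between lengths, and values without them are no independent check.

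Several members changed with seed length, and none passed between lines when all lengths were averaged. Over the 6 pairs of line and year, from the fit of limma across all probe sets, 2 of the 12 probe sets rose and 5 fell in seeds of 5-6 mm relative to 2 mm (Benjamini-Hochberg adjusted p under 0.05). Over all tested probe sets 62.5% were called in this comparison, 25.5% higher and 37.0% lower, so 7 of 12 is close to the background. DHPS1 and AK-HSDH rose, both ALAAT1 probe sets, ASP1 and 2 CGS2 probe sets fell, and ALAAT2, ALAAT3, TSA and the other 2 CGS2 probe sets did not pass. The members' median difference was -0.03, against -0.06 over all tested probe sets. Without the 9 arrays out of stage the counts were again 2 higher and 5 lower, with 69.9% of all called.

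**Figure D1:**
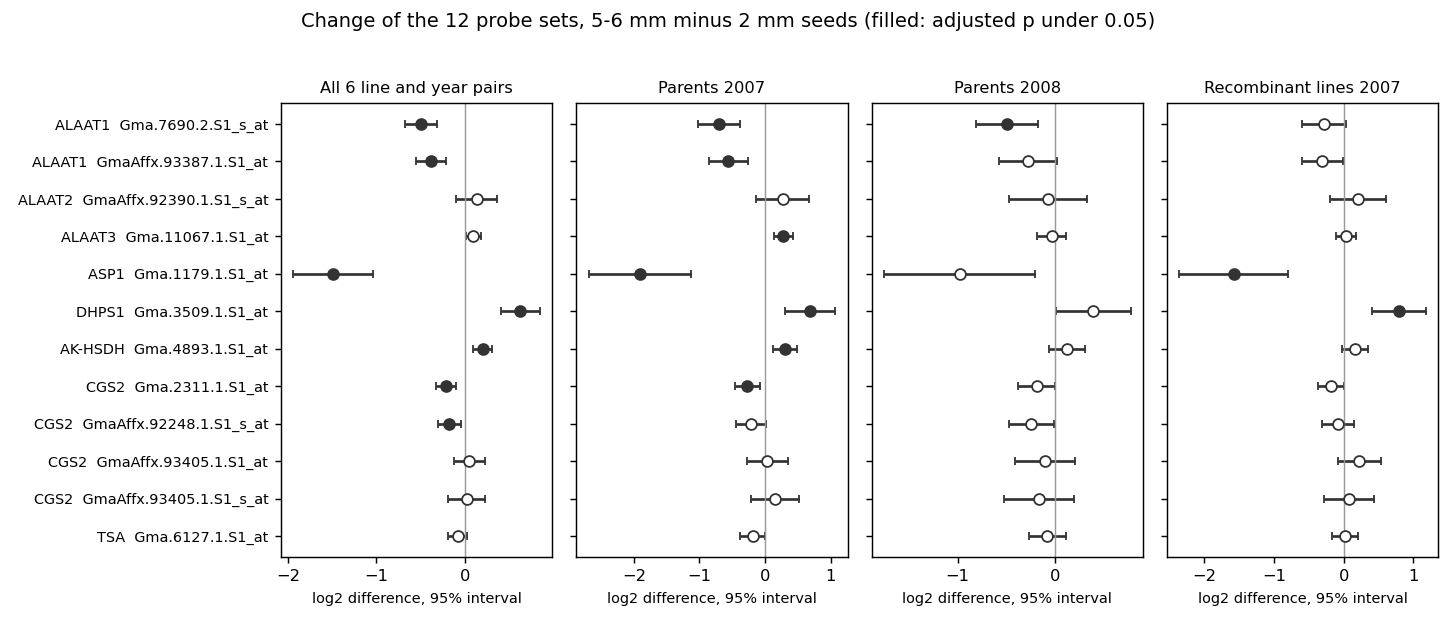
Difference in log2 signal between seeds of 5-6 mm and 2 mm for the 12 probe sets, over all 6 pairs of line and year and within each set of arrays (points, with 95% confidence intervals as bars; each panel has its own horizontal scale). Filled points have a limma adjusted p under 0.05; ASP1 lies farthest to the left in every panel and DHPS1 farthest to the right.

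ASP1, the asparaginase gene, had the largest change of the 12 probe sets. Its log2 signal in Archer of 2007 was 13.89, 13.87 and 13.30 at 2 mm, 12.87, 12.92 and 11.82 at 3.5 mm, and 11.28, 11.21 and 11.86 at 5-6 mm. In Minsoy of the same year it was 14.29, 13.93 and 14.56 at 2 mm, 12.70, 13.31 and 12.51 at 3.5 mm, and 12.30, 14.33 and 11.39 at 5-6 mm. In Archer the seeds of 2 mm lay above all later ones, whereas in Minsoy replicate 2 at 5-6 mm was as high as the seeds of 2 mm.

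In 2008 Archer gave 14.54, 13.74 and 13.77 at 2 mm, 12.81, 12.91 and 13.59 at 3.5 mm, and 12.11, 12.67 and 12.07 at 5-6 mm for ASP1. Minsoy of 2008 gave 12.42, 13.90 and 14.04 at 2 mm, 12.83, 13.10 and 12.63 at 3.5 mm, and 13.52, 12.98 and 13.18 at 5-6 mm. Minsoy's replicate 1 was low at 2 mm and high at 5-6 mm, and both of these arrays are among those out of stage. In the high yield line ASP1 was 13.05, 13.15 and 13.83 at 2 mm, 12.86, 13.06 and 11.62 at 3.5 mm, and 11.44, 10.80 and 11.01 at 5-6 mm. In the low yield line it was 10.66, 13.38 and 13.38 at 2 mm, 12.56, 11.99 and 13.20 at 3.5 mm, and 11.93, 11.28 and 11.51 at 5-6 mm. The value of 10.66 came from the 2 mm array of the low yield line that is out of stage, and without it both lines kept their 2 mm seeds above their 5-6 mm seeds.

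ASP1 fell in seeds of 5-6 mm by 1.49 on the log2 scale relative to 2 mm (SE 0.22, limma adjusted p = 4.36e-07), which is 2.81-fold lower. It fell already at 3.5 mm relative to 2 mm, by 0.80 (SE 0.22, adjusted p = 0.00649), and again at 5-6 mm relative to 3.5 mm, by 0.69 (SE 0.22, adjusted p = 0.00923). All 6 pairs of line and year had a lower mean at 5-6 mm than at 2 mm. The difference between 5-6 mm and 2 mm was -2.23 in Archer and -1.58 in Minsoy in 2007, -1.73 in Archer and -0.23 in Minsoy in 2008, and -2.26 in the high yield and -0.90 in the low yield line. Those of Archer in both years, Minsoy in 2007 and the high yield line passed the test (adjusted p = 0.00229, 0.0372, 0.0175 and 0.00124), and those of Minsoy in 2008 and the low yield line did not (0.958 and 0.426). Of all tested probe sets 29.5%, 10.7%, 43.6% and 39.0% were called in the comparisons that passed for ASP1, in the same order, and 0.00% and 0.306% in the others. The call of Archer in 2008 was lost with the planting replicate as a block in the arrays of 2008 (adjusted p = 0.0597) and on leaving out any 1 of its 6 arrays at these lengths (adjusted p from 0.0546 to 0.160). That of Minsoy in 2007 was lost on leaving out 2 mm replicate 3, 5-6 mm replicate 1 or 5-6 mm replicate 3 (-1.43, -1.40 and -0.94, adjusted p = 0.0642, 0.0590 and 0.197). Without the arrays out of stage, a choice that favours a larger change, the fall over all pairs was 1.75 (adjusted p = 1.27e-09).

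**Figure D2:**
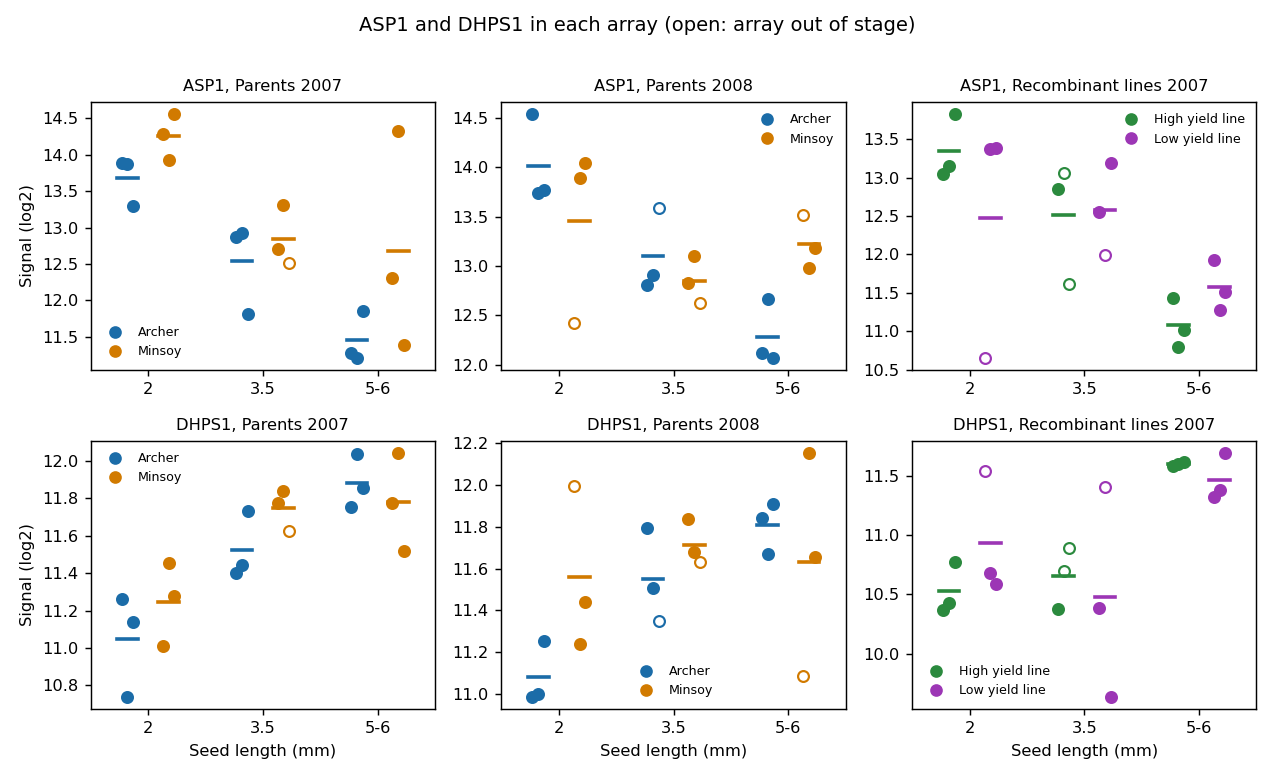
Log2 signal of ASP1 (top) and DHPS1 (bottom) in each array by seed length and set. Each point is 1 array, horizontal bars are means of 3 arrays, and open points are arrays out of stage; ASP1 is high at 2 mm and low at 5-6 mm in Archer and the high yield line, and DHPS1 runs the other way. Each panel has its own vertical scale.

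DHPS1 encodes dihydrodipicolinate synthase, the enzyme that commits aspartate semialdehyde to lysine and that lysine inhibits. Archer of 2007 had log2 signals of 11.26, 10.74 and 11.14 at 2 mm, 11.40, 11.45 and 11.73 at 3.5 mm, and 11.75, 12.04 and 11.86 at 5-6 mm. Minsoy had 11.01, 11.45 and 11.28 at 2 mm, 11.78, 11.84 and 11.63 at 3.5 mm, and 11.78, 12.04 and 11.52 at 5-6 mm. All 6 parental arrays at 5-6 mm lay above all 6 at 2 mm in that year.

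In 2008 DHPS1 in Archer was 10.99, 11.00 and 11.26 at 2 mm, 11.80, 11.51 and 11.35 at 3.5 mm, and 11.84, 11.67 and 11.91 at 5-6 mm. In Minsoy it was 12.00, 11.24 and 11.44 at 2 mm, 11.84, 11.68 and 11.63 at 3.5 mm, and 11.09, 12.15 and 11.65 at 5-6 mm. Archer's 2 mm seeds lay below all its later ones, while Minsoy's seeds of 2 mm and 5-6 mm overlapped through replicate 1 of each, the same arrays out of stage as for ASP1. In the high yield line DHPS1 was 10.37, 10.43 and 10.78 at 2 mm, 10.37, 10.70 and 10.89 at 3.5 mm, and 11.58, 11.60 and 11.62 at 5-6 mm. In the low yield line it was 11.54, 10.68 and 10.59 at 2 mm, 10.38, 11.41 and 9.64 at 3.5 mm, and 11.32, 11.38 and 11.69 at 5-6 mm. The 5-6 mm seeds of the high yield line stood clear of all its younger seeds, and in the low yield line replicate 1 at 2 mm and replicate 2 at 3.5 mm, both out of stage, overlapped them.

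DHPS1 rose in seeds of 5-6 mm by 0.63 relative to 2 mm (SE 0.11, limma adjusted p = 6.6e-06), which is 1.54-fold higher, with a higher mean at 5-6 mm in all 6 pairs of line and year. It rose by 0.41 at 5-6 mm relative to 3.5 mm (SE 0.11, adjusted p = 0.00197), and its difference of 0.21 at 3.5 mm relative to 2 mm did not pass (adjusted p = 0.145). Within single lines it passed in the high yield line, where 5-6 mm seeds were 2.10-fold above 2 mm seeds (adjusted p = 0.00183), and in Archer of 2007 (0.84, adjusted p = 0.0174). The Archer call was lost without 2 mm replicate 2 (0.68, adjusted p = 0.102) and without 5-6 mm replicate 2 (0.76, adjusted p = 0.0723). Without the arrays out of stage, a choice that favours a larger change, the rise over all pairs was 0.76 (adjusted p = 3.63e-10).

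AK-HSDH encodes aspartate kinase with homoserine dehydrogenase, which opens the route from aspartate and leads it on toward methionine and threonine. Its signals stayed within a narrow range. Among the 2007 parents it lay between 11.25 and 11.64 at 2 mm, between 11.41 and 11.62 at 3.5 mm, and between 11.58 and 12.03 at 5-6 mm, with medians of 11.42, 11.48 and 11.70. The medians in the parents of 2008 were 11.30, 11.39 and 11.42, and in the recombinant lines 11.97, 12.22 and 12.13, in the same order of lengths. It rose by 0.20 in 5-6 mm seeds relative to 2 mm seeds (SE 0.05, limma adjusted p = 0.00133), 1.15-fold, with the same sign in 6 of 6 pairs of line and year. Within single sets AK-HSDH passed in the parents of 2007 (0.30, SE 0.09, adjusted p = 0.00585). In the parents of 2008 (0.13) and the recombinant lines (0.17) the test was not passed (adjusted p = 0.377 and 0.141).

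CGS2, cystathionine gamma-synthase, commits the route to methionine, and its 4 probe sets did not move together in every set. For Gma.2311.1.S1_at the parents of 2007 had medians of 13.80, 13.77 and 13.51 at 2, 3.5 and 5-6 mm, with a lowest of 13.26 and a highest of 13.96 over all arrays of that set. The medians of the recombinant lines were 13.09, 13.31 and 12.88. This probe set fell by 0.21 at 5-6 mm relative to 2 mm (SE 0.05, limma adjusted p = 0.000848) and by 0.24 relative to 3.5 mm (SE 0.05, adjusted p = 0.000337). GmaAffx.92248.1.S1_s_at also fell at 5-6 mm relative to 2 mm, by 0.18 (SE 0.07, adjusted p = 0.0183). In contrast, GmaAffx.93405.1.S1_at differed by 0.05 (SE 0.09, adjusted p = 0.631) and GmaAffx.93405.1.S1_s_at by 0.02 (SE 0.10, adjusted p = 0.866). In the parents of 2008 all 4 differences were negative (-0.19, -0.24, -0.10 and -0.16, in the order named), and none passed. In the parents of 2007 the means of the 93405 design were higher at 5-6 mm (10.67 and 10.94) than at 2 mm (10.64 and 10.79). Over the 18 group means, each centred on its set, Gma.2311.1.S1_at correlated with GmaAffx.93405.1.S1_at at r = -0.50, and the 2 probe sets of the 93405 design correlated with each other at 0.87. These points share arrays and normalisation, so the values are descriptions. In the recombinant arrays of high actin difference the 93405 design was low and Gma.2311.1.S1_at was not, as given below. The part of those arrays in these correlations was not tested. The annotation gives all 4 the same gene, and which transcript copy each one reads was not tested.

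TSA, the tryptophan synthase subunit that releases indole, was among the steadiest members in the parents. Its signals ran from 11.60 to 12.18 in the parents of 2007, from 11.85 to 12.15 in the parents of 2008 and from 11.21 to 12.18 in the recombinant lines. It differed by -0.08 between 5-6 mm and 2 mm (SE 0.05, limma adjusted p = 0.189). Its SD over the 18 arrays of 2008 parents was 0.08, and 98.2% of tested probe sets had a larger one. For ASP1 the SD in that set was 0.68, exceeded by 10.9% of tested probe sets. In the recombinant lines the SD of TSA was 0.24, and 80.5% of tested probe sets had a larger one. There TSA was among the members that rose at 5-6 mm relative to 3.5 mm. That call was lost without any 1 of 5 arrays (limma adjusted p from 0.0595 to 0.223).

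ALAAT1, the alanine aminotransferase with 2 probe sets, fell with seed length. For Gma.7690.2.S1_s_at Archer of 2007 had 11.76, 11.57 and 11.78 at 2 mm, 11.88, 11.76 and 11.41 at 3.5 mm, and 11.36, 11.00 and 11.33 at 5-6 mm. Minsoy of 2007 had 11.55, 11.88 and 11.76 at 2 mm, 11.64, 11.62 and 11.12 at 3.5 mm, and 11.17, 10.51 and 10.69 at 5-6 mm. All 6 arrays of 5-6 mm lay below all 6 arrays of 2 mm.

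In 2008 Archer had 11.50, 11.53 and 11.58 at 2 mm, 11.14, 11.56 and 11.60 at 3.5 mm, and 10.92, 11.00 and 10.98 at 5-6 mm for the same ALAAT1 probe set. Minsoy had 10.90, 11.75 and 11.53 at 2 mm, 11.09, 11.31 and 11.40 at 3.5 mm, and 11.48, 10.68 and 10.77 at 5-6 mm. As with ASP1 and DHPS1, Minsoy's replicate 1 stood opposite to its companions at 2 mm and 5-6 mm. The high yield line had 12.74, 12.75 and 12.98 at 2 mm, 12.64, 13.14 and 12.39 at 3.5 mm, and 12.64, 12.52 and 12.46 at 5-6 mm. The low yield line had 12.56, 13.10 and 13.14 at 2 mm, 12.86, 12.99 and 12.13 at 3.5 mm, and 12.87, 12.44 and 12.65 at 5-6 mm. The lengths of the low yield line overlapped, while in the high yield line all 5-6 mm arrays lay below all 2 mm arrays.

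ALAAT1 fell in 5-6 mm seeds by 0.50 relative to 2 mm seeds on this probe set (SE 0.09, limma adjusted p = 1.42e-05), 1.41-fold lower, and by 0.38 on GmaAffx.93387.1.S1_at (SE 0.08, adjusted p = 0.000192), 1.30-fold lower. Both fell at 5-6 mm relative to 3.5 mm (by 0.35 and 0.36, adjusted p = 0.00187 and 0.000678), and neither passed at 3.5 mm relative to 2 mm (-0.15 and -0.02, adjusted p = 0.224 and 0.872). Each had the same sign at 5-6 mm relative to 2 mm in 6 of 6 pairs of line and year. Without the arrays out of stage, a choice that favours a larger change, the falls were 0.61 and 0.50.

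ALAAT2 and ALAAT3 did not follow ALAAT1. ALAAT3 in Archer of 2007 was 9.48, 9.51 and 9.41 at 2 mm, 9.85, 9.71 and 9.82 at 3.5 mm, and 10.08, 9.71 and 9.86 at 5-6 mm. In Minsoy it was 9.44, 9.74 and 9.59 at 2 mm, 9.87, 10.00 and 10.06 at 3.5 mm, and 9.78, 9.70 and 9.72 at 5-6 mm. ALAAT3 was lowest at 2 mm in Archer, and in Minsoy all 3.5 mm seeds lay above the other lengths. Over the mean of all 6 pairs it rose at 3.5 mm relative to 2 mm by 0.14 (SE 0.04, limma adjusted p = 0.0147), with that sign in 4 of 6 pairs (from -0.16 to 0.39). Its difference of 0.09 at 5-6 mm relative to 2 mm did not pass (SE 0.04, adjusted p = 0.0537). The rise at 3.5 mm was 0.36 in the parents of 2007 (SE 0.07, adjusted p = 0.00065). All ALAAT3 signals of the 2008 parents lay between 10.19 and 10.55, with medians of 10.34, 10.35 and 10.33 at 2, 3.5 and 5-6 mm.

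ALAAT2 ran between 11.23 and 12.10 in the parents of 2007, with medians of 11.42, 11.86 and 11.77 at 2, 3.5 and 5-6 mm, and between 11.74 and 12.01 in the parents of 2008. Its SD over the 18 arrays of 2008 was 0.08, and 98.0% of tested probe sets had a larger one. It differed by 0.13 between 5-6 mm and 2 mm (SE 0.11, limma adjusted p = 0.319). It rose at 5-6 mm relative to 3.5 mm by 0.27 (SE 0.11, adjusted p = 0.0406), a call lost without any 1 of 15 arrays (adjusted p from 0.0505 to 0.0938). Its sign held in 3 of 6 pairs of line and year. Without the 4 recombinant arrays of high actin difference the value was -0.07 (adjusted p = 0.435), and the difference at 3.5 mm relative to 2 mm was 0.20 (adjusted p = 0.0283) in place of -0.14 (adjusted p = 0.370). The probe set shared by ALAAT2 and ALAAT3 differed by 0.00 between 5-6 mm and 2 mm (SE 0.05, adjusted p = 0.967).

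**Figure D3:**
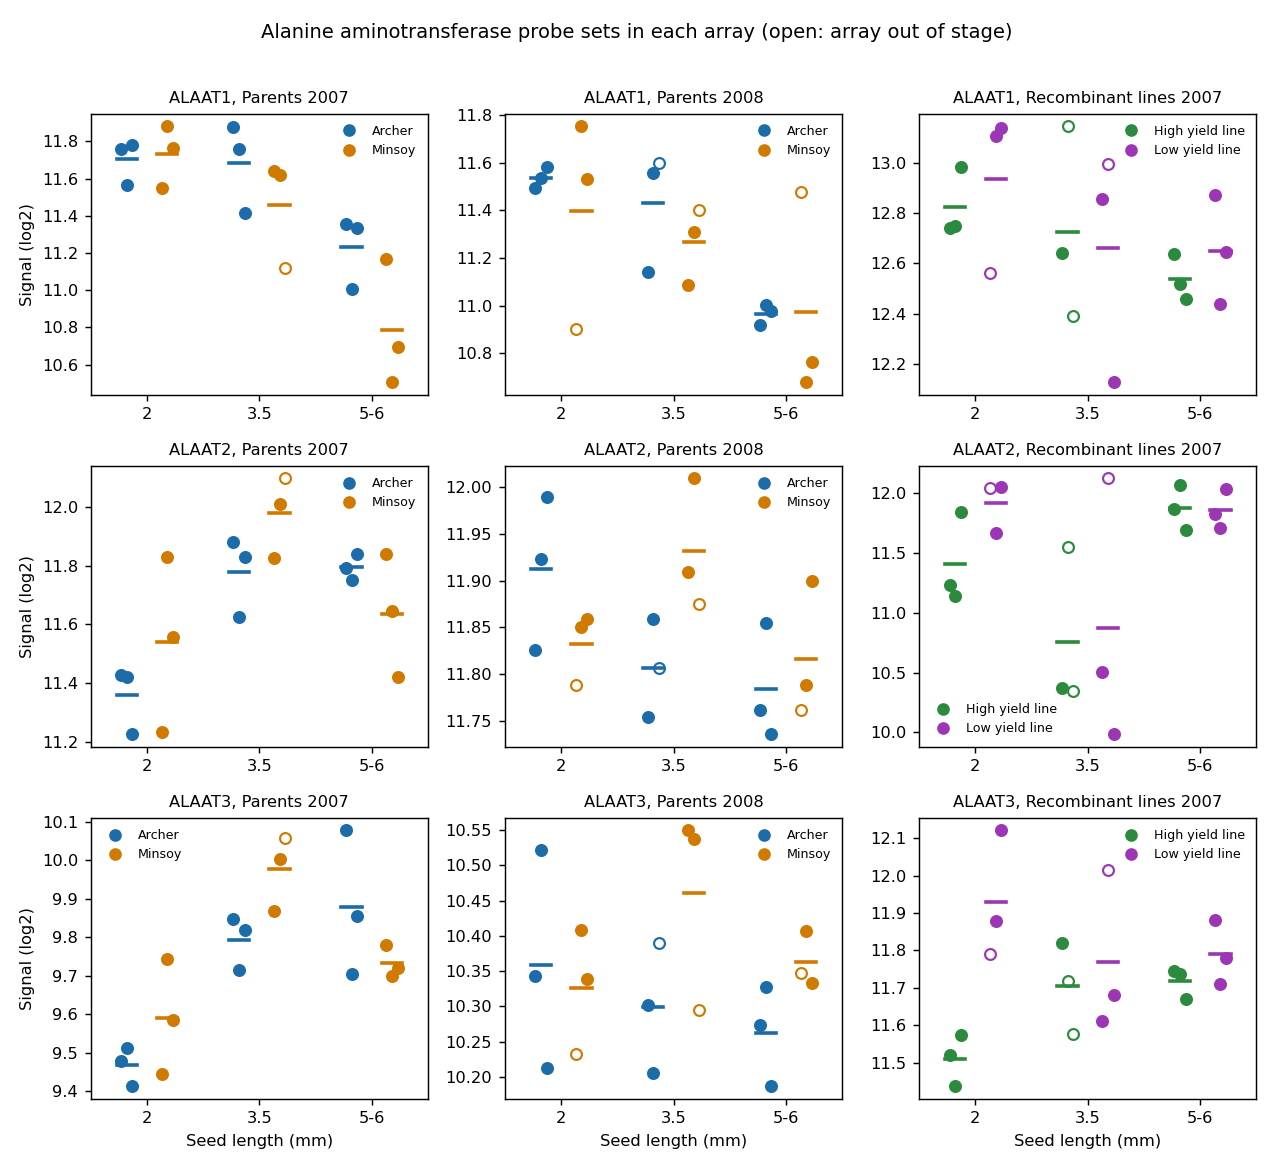
Log2 signal of ALAAT1 (Gma.7690.2.S1_s_at), ALAAT2 and ALAAT3 in each array by seed length and set. Each point is 1 array, bars are means of 3 arrays, and open points are arrays out of stage; ALAAT1 declines toward 5-6 mm in the parents, the means of ALAAT2 and ALAAT3 are lowest at 2 mm in the parents of 2007, and ALAAT2 is low in 4 of 6 recombinant arrays at 3.5 mm. Each panel has its own vertical scale.

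At 3.5 mm relative to 2 mm, 1 of the 12 probe sets rose (ALAAT3) and 1 fell (ASP1), where 27.7% of all tested probe sets were called, 14.2% higher and 13.5% lower. At 5-6 mm relative to 3.5 mm, 2 rose (ALAAT2, DHPS1) and 4 fell (both ALAAT1 probe sets, ASP1 and Gma.2311.1.S1_at of CGS2), where 55.2% of all were called, 21.8% higher and 33.4% lower. The first of these counts depended on the arrays used: without the arrays out of stage 3 rose and 7 fell at 3.5 mm relative to 2 mm (41.1% of all called), and without the 4 arrays of high actin difference 3 rose and 1 fell (23.4% of all called).

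Within the sets, the comparison of 5-6 mm with 2 mm called most members in the parents of 2007. There 3 probe sets rose (ALAAT3 by 0.28, DHPS1 by 0.68, AK-HSDH by 0.30) and 4 fell (ALAAT1 by 0.71 and 0.56, ASP1 by 1.91, Gma.2311.1.S1_at of CGS2 by 0.27), with limma adjusted p from 8.84e-05 to 0.0134 and 53.4% of all tested probe sets called (22.6% higher, 30.8% lower). The CGS2 call was lost without Minsoy 5-6 mm replicate 2 (-0.23, adjusted p = 0.0503). In the same arrays the pod or vegetative markers were lower at 5-6 mm, as given above, and their part was not tested. In this set the 5-6 mm and 2 mm signals of ALAAT1 (Gma.7690.2.S1_s_at) and of DHPS1 did not overlap, and those of the other member probe sets did. The share of all tested probe sets without overlap is not given, so this has no background beside it. In the parents of 2008 only the ALAAT1 probe set Gma.7690.2.S1_s_at passed (-0.50, SE 0.16, adjusted p = 0.0386), where 11.2% of all were called, 5.18% lower. That call was lost with the planting replicate as a block in the arrays of 2008 (adjusted p = 0.0852), in those arrays without the block (0.0612), and on leaving out any 1 of 10 of the 12 arrays (adjusted p from 0.0584 to 0.170). Leaving out the 4 arrays of 2008 that were out of stage raised the count of called members to 1 higher (DHPS1, 0.65, adjusted p = 0.0004) and 5 lower, ASP1 among them (-1.31, adjusted p = 0.00252), while the share of all tested probe sets called was then 39.3%.

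In the recombinant lines DHPS1 rose by 0.80 (SE 0.19, limma adjusted p = 0.00109), 1.74-fold, and ASP1 fell by 1.58 (SE 0.39, adjusted p = 0.00137), 2.99-fold, in 5-6 mm relative to 2 mm seeds. These were 2 of 12, where 39.3% of all tested probe sets were called (15.3% higher, 24.0% lower). Without the arrays out of stage, 1 rose and 4 fell, where 51.8% of all were called. Both lines therefore had the DHPS1 and ASP1 changes of the parents of 2007 in sign, and the parents of 2008 had them in sign without passing (0.40 and -0.98, adjusted p = 0.163 and 0.0872). None of the 12 passed between years in this change: for ASP1 the change in 2008 minus that in 2007 was 0.93 (SE 0.54, adjusted p = 0.341), and for ALAAT3 it was -0.31 (SE 0.10, adjusted p = 0.0985), where 2.27% of all were called. ALAAT3 passed in the fit to the compared arrays alone (adjusted p = 0.0462), without the arrays of high actin difference (0.0483) and with array weights (-0.29, adjusted p = 0.0181). At 3.5 mm the parents of 2008 gave no call among the members or among all probe sets (0.00%) in either step. Each step called 20.9% of all in the parents of 2007, the later one 13.2% lower. There ALAAT3 rose and ASP1 fell at 3.5 mm relative to 2 mm, ASP1 by 1.28 (adjusted p = 0.0153), or by 1.10 without Archer 3.5 mm replicate 3 (adjusted p = 0.0639). Both ALAAT1 probe sets fell at 5-6 mm relative to 3.5 mm (by 0.56 and 0.54, adjusted p = 0.0132 and 0.011), or by 0.49 and 0.46 without Minsoy 5-6 mm replicate 2 (adjusted p = 0.0557 and 0.0525).

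The recombinant lines had a pattern of their own at 3.5 mm, and it ran with the actin control. ALAAT2 in the high yield line was 11.24, 11.15 and 11.84 at 2 mm, 10.37, 11.55 and 10.35 at 3.5 mm, and 11.87, 12.07 and 11.69 at 5-6 mm. In the low yield line it was 12.05, 11.67 and 12.05 at 2 mm, 10.51, 12.13 and 9.99 at 3.5 mm, and 11.82, 11.71 and 12.04 at 5-6 mm. The 4 low arrays at 3.5 mm are the same 4 with the high actin difference, and the other array of each line at 3.5 mm was not low.

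GmaAffx.93405.1.S1_at of CGS2 gave 8.74, 8.83 and 9.19 at 2 mm, 8.57, 9.23 and 8.39 at 3.5 mm, and 9.28, 9.32 and 9.32 at 5-6 mm in the high yield line. In the low yield line it gave 9.29, 9.14 and 9.19 at 2 mm, 8.32, 9.21 and 7.48 at 3.5 mm, and 9.41, 9.20 and 9.20 at 5-6 mm. The same 4 arrays were below all 14 others for ALAAT2 (9.99 to 10.51, against 11.15 to 12.13), for this CGS2 probe set (7.48 to 8.57, against 8.74 to 9.41) and for GmaAffx.93405.1.S1_s_at (10.07 to 11.17, against 11.40 to 11.96). TSA was below all 14 others in 3 of the 4 arrays and Gma.7690.2.S1_s_at of ALAAT1 in 2. DHPS1 and GmaAffx.92248.1.S1_s_at of CGS2 were so in 1 each. In the other direction, AK-HSDH was above all 14 others in 3 of the 4 and Gma.2311.1.S1_at of CGS2 in 2. GmaAffx.93387.1.S1_at of ALAAT1 was above them in 1. For ASP1 and ALAAT3 the 4 arrays lay within the range of the others. With all arrays, at 3.5 mm relative to 2 mm, ALAAT2 fell by 0.85 (SE 0.20, limma adjusted p = 0.00189) and the 2 CGS2 probe sets of the 93405 design by 0.53 and 0.56 (adjusted p = 0.00909 and 0.0168). These were 3 of 12, where 30.4% of all tested probe sets were called, 15.6% lower. Both CGS2 calls were lost without low yield line replicate 3 at 3.5 mm, the array whose title and description disagree (-0.31 each, adjusted p = 0.0806 and 0.144), and that of GmaAffx.93405.1.S1_s_at also without high yield line replicate 3 at 2 mm or at 3.5 mm (-0.50 and -0.44, adjusted p = 0.0546 and 0.0822). At 5-6 mm relative to 3.5 mm, 5 probe sets rose and 2 fell, where 58.2% of all were called (23.1% higher, 35.1% lower). ALAAT2 was then 2.08-fold higher (1.06, SE 0.20, adjusted p = 4.9e-05). Leaving out the 4 arrays leaves 1 array of each line at 3.5 mm, replicate 2, and both are out of stage. With these, none of the 12 passed in either step (0.234% of all called at 3.5 mm relative to 2 mm and 7.97% at 5-6 mm relative to 3.5 mm), and ALAAT2 differed by 0.17 at 3.5 mm relative to 2 mm (adjusted p = 0.865). Leaving out the arrays out of stage leaves 3 arrays at 3.5 mm, all with a high actin difference. With these, 1 member rose and 6 fell at 3.5 mm relative to 2 mm (44.3% of all called), and ALAAT2 was 9.99 to 10.51 at 3.5 mm, against 11.15 to 12.05 at 2 mm, with a difference of -1.33 (adjusted p = 4.53e-08). Seed length and RNA quality, as read from the actin difference, therefore cannot be told apart at 3.5 mm in the recombinant lines.

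**Figure D4:**
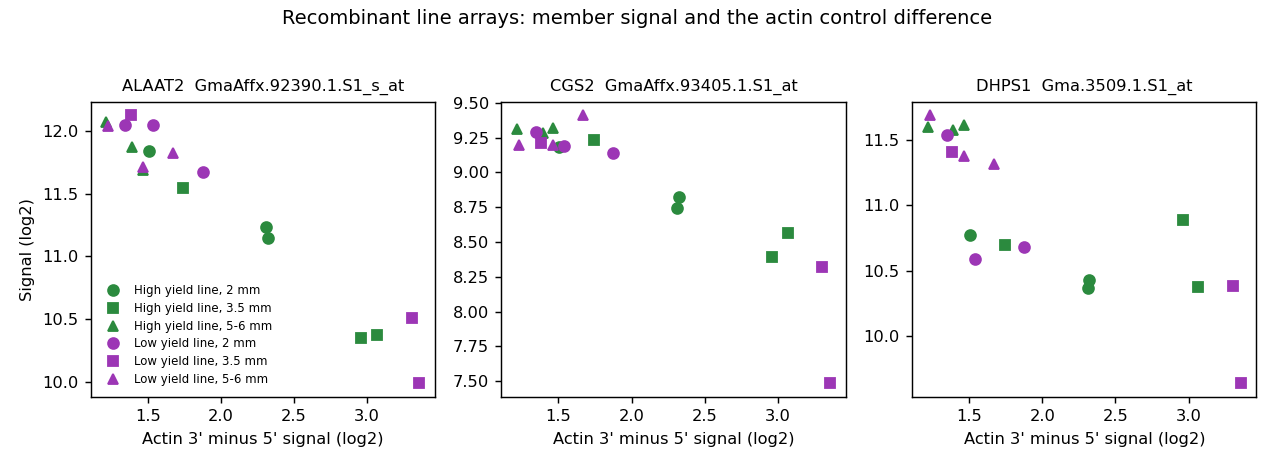
Log2 signal of ALAAT2, of CGS2 (GmaAffx.93405.1.S1_at) and of DHPS1 in the 18 arrays of the recombinant lines against the difference between the 3' and 5' actin controls (log2). Each point is 1 array, with colour for the line and shape for seed length; the 4 arrays with an actin difference over 2.5, all of 3.5 mm, have the lowest ALAAT2 and CGS2 signals.

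Between the cultivars none of the 12 probe sets passed. Over both years and all lengths, Archer minus Minsoy gave 0 calls and 0 at an unadjusted p under 0.05 by limma, where 9.93% of all tested probe sets were called. With array weights estimated by limma 2 passed, ALAAT1 (Gma.7690.2.S1_s_at, 0.20, adjusted p = 0.00538) and DHPS1 (-0.20, adjusted p = 0.0137). The share of all tested probe sets called with these weights is not given. The widest difference was that of ASP1, at -0.37 (95% interval -0.82 to 0.08, adjusted p = 0.308). In 2007 ASP1 averaged 12.56 ± 1.05 in Archer and 13.26 ± 1.10 in Minsoy (SD over 9 arrays of 3 lengths), a difference of -0.70 (SE 0.31, adjusted p = 0.175). In 2008 it averaged 13.13 ± 0.83 in Archer and 13.18 ± 0.55 in Minsoy, a difference of -0.04 (adjusted p = 0.986). For ALAAT1 (Gma.7690.2.S1_s_at) Archer minus Minsoy was 0.16 (interval -0.03 to 0.34), and for CGS2 (Gma.2311.1.S1_at) it was -0.01 (interval -0.12 to 0.10). Single years gave no call either, where 9.09% of all were called in 2007 and 2.96% in 2008. With array weights TSA passed in 2007 (0.14, adjusted p = 0.0419), and ALAAT1 (Gma.7690.2.S1_s_at, 0.19, adjusted p = 0.0310) and DHPS1 (-0.32, adjusted p = 0.00171) in 2008. At 5-6 mm in 2007 ALAAT1 on that probe set was higher in Archer by 0.44, which did not pass in the main fit. It passed in the fit without the arrays out of stage and those of high actin difference (adjusted p = 0.0384). That fit left out none of the arrays of this comparison, so the difference itself was the same. The change of ASP1 between 5-6 mm and 2 mm was lower in Archer than in Minsoy by a difference of -1.08 that did not pass (SE 0.54, adjusted p = 0.410; 0.0566% of all called).

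**Figure D5:**
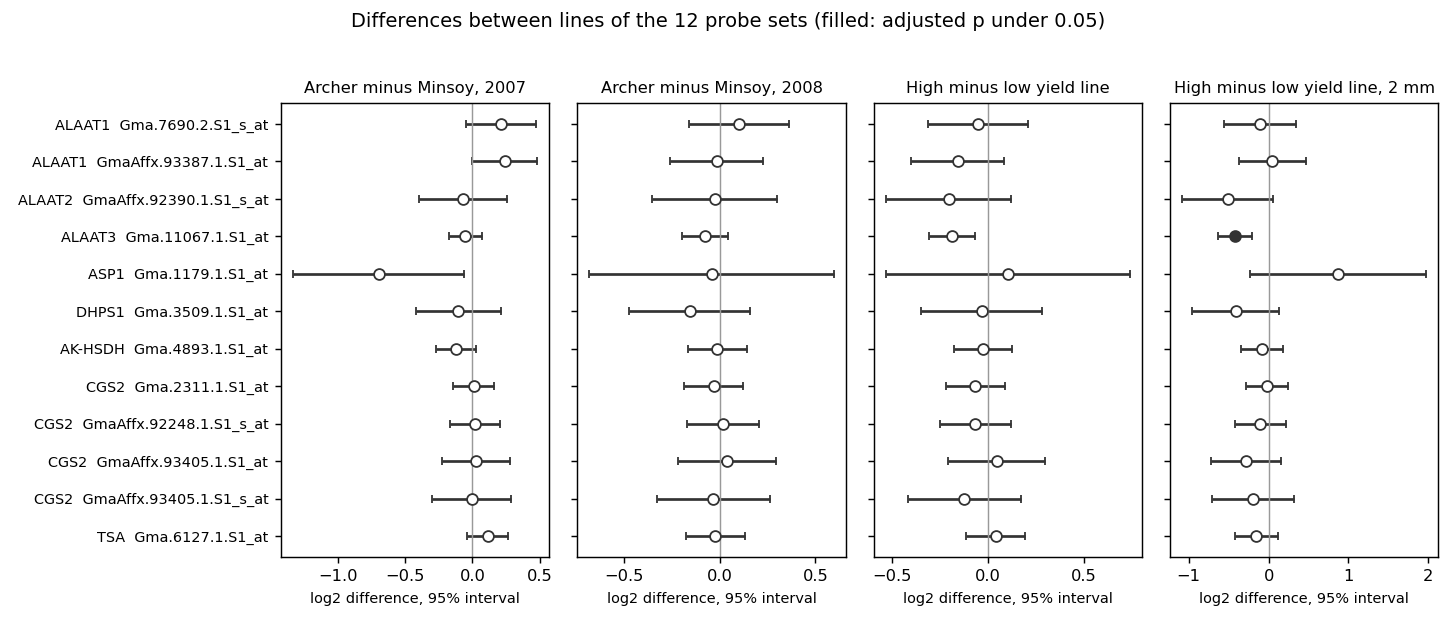
Differences in log2 signal between lines for the 12 probe sets: Archer minus Minsoy in 2007 and in 2008, and the high yield minus the low yield line over all lengths and at 2 mm (points, with 95% confidence intervals as bars; each panel has its own horizontal scale). The filled point, ALAAT3 at 2 mm between the recombinant lines, is the only one with a limma adjusted p under 0.05.

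Between the recombinant lines ALAAT3 differed in the youngest seeds. At 2 mm it was 11.52, 11.44 and 11.57 in the high yield line, against 11.79, 11.88 and 12.12 in the low yield line, with no overlap. At 3.5 mm it was 11.82, 11.72 and 11.58 in the high yield line, against 11.61, 12.01 and 11.68 in the low yield line. At 5-6 mm it was 11.74, 11.74 and 11.67 in the high yield line, against 11.88, 11.71 and 11.78 in the low yield line. The lines thus overlapped at the later lengths.

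ALAAT3 at 2 mm was 1.34-fold lower in the high yield line, a difference of -0.42 (SE 0.10, limma adjusted p = 0.00809), the only member called there, where 7.87% of all tested probe sets were called, 3.49% lower. The call was lost without low yield line 2 mm replicate 3 (-0.33, adjusted p = 0.0692) and without high yield line 2 mm replicate 2 (-0.38, adjusted p = 0.0557), and held without the arrays out of stage, of which low yield line 2 mm replicate 1 is one (-0.49, adjusted p = 0.00214). The actin difference of these arrays was 2.31, 2.32 and 1.51 in the high yield line, against 1.35, 1.88 and 1.54 in the low yield line, and its part in the result was not tested. Averaged over lengths the difference of ALAAT3 was -0.19 (SE 0.06, adjusted p = 0.0616), and none of the 12 passed, with 1 at an unadjusted p under 0.05, where 5.37% of all were called. ALAAT3 passed over all lengths with no filter on dim probe sets (adjusted p = 0.0481) and with arrays centred on their median (-0.20, adjusted p = 0.0292). With array weights 6 of the 12 passed, all lower in the high yield line: both ALAAT1 probe sets, ALAAT2, ALAAT3 and the CGS2 probe sets GmaAffx.92248.1.S1_s_at and GmaAffx.93405.1.S1_s_at (differences from -0.30 to -0.16). The share of all tested probe sets called with these weights is not given, so the 6 have no background beside them. The shared probe set of ALAAT2 and ALAAT3 was lower in the high yield line, with a difference of -0.22 (SE 0.07, adjusted p = 0.0383), and it correlated with ALAAT3 at r = 0.83 over the 18 centred group means. Without the 4 arrays of high actin difference ALAAT3 (-0.26) and ALAAT2 (-0.36) were lower in the high yield line. This leaves 1 array of each line at 3.5 mm, and both are out of stage. That of the high yield line sat nearest to 2 mm and that of the low yield line to 5-6 mm. Line and stage therefore cannot be told apart at 3.5 mm in these values.

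ASP1 did not separate the recombinant lines: it averaged 12.31 ± 1.10 in the high yield line and 12.21 ± 0.98 in the low yield line (SD over 9 arrays of 3 lengths), a difference of 0.11 (95% interval -0.53 to 0.74, limma adjusted p = 0.940). DHPS1 averaged 10.93 ± 0.53 in the high yield and 10.96 ± 0.68 in the low yield line, a difference of -0.03 (interval -0.35 to 0.28, adjusted p = 0.966). The change of ASP1 between 5-6 mm and 2 mm, in the high yield line minus that in the low yield line, was -1.36 and did not pass (SE 0.77, adjusted p = 0.408; 1.18% of all called). At 3.5 mm and 5-6 mm no member passed between these lines, where 1.66% and 0.00% of all were called.

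Across the 18 group means, each centred on its set, some pairs of members ran in opposite courses and others had little relation. Among the latter were ALAAT1 (Gma.7690.2.S1_s_at) with ALAAT2 (r = -0.02) and ASP1 with TSA (0.01). ASP1 and DHPS1 correlated at r = -0.86, and the 2 ALAAT1 probe sets correlated with AK-HSDH at -0.86 and -0.81. ALAAT2 ran with GmaAffx.93405.1.S1_s_at of CGS2 at 0.95, and both were low in the 4 recombinant arrays of high actin difference. The part of those arrays in this and the other correlations was not tested. ALAAT2 and ALAAT3 correlated at 0.49. Among 803 other genes with a descriptive symbol, the nearest to ASP1 were AUX22 (0.92) and FAD2-2 (0.91). Nearest to DHPS1 were CAB3 (0.96), a chlorophyll-binding protein of the light-harvesting complex, and GAI2 (0.95). For ALAAT1 they were PDIL-2 and OAS-TL3 (0.94 each), for ALAAT2 AAT and ALDH6B1 (0.93 each) and for ALAAT3 FAD6.1 (0.85) and SSTP-1 (0.82). For AK-HSDH they were KASII-A (0.94) and TUBB3 (0.91), for CGS2 GPA1 (0.96) and EIN4 (0.95), and for TSA DIM1 (0.95) and RPS13 (0.88). All are correlations over points that share arrays and normalisation, and they carry no test.

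Other genes of amino acid and nitrogen metabolism were found by 134 symbols, of which 14 had a single annotated gene and 11 were tested. In 5-6 mm relative to 2 mm seeds 6 of the 11 rose and 4 fell, where 62.5% of all tested probe sets were called, with a median difference of 0.34, against -0.06 over all tested probe sets. GS1GAMMA2, a cytosolic glutamine synthetase, rose by 0.99 (SE 0.18, limma adjusted p = 8.1e-06), PDH by 1.16 (SE 0.15, adjusted p = 5.35e-08) and GDH1, a glutamate dehydrogenase, by 0.63 (SE 0.18, adjusted p = 0.00273). NIR, nitrite reductase, fell by 1.07 (SE 0.09, adjusted p = 9.02e-12), GDH2 by 0.63 (SE 0.08, adjusted p = 1.95e-08) and SAT1 by 0.61 (SE 0.12, adjusted p = 2.54e-05). The probe sets of GDH1 disagree: the other ones that were tested gave 3.24 and 0.06. At 3.5 mm relative to 2 mm 1 of the 11 rose and 3 fell (27.7% of all called), and at 5-6 mm relative to 3.5 mm 5 rose and 4 fell (55.2% of all called). A further 10 symbols are other spellings of listed names or numbered members of listed families. Of the 9 tested 3 rose and 3 fell at 5-6 mm relative to 2 mm, against the same 62.5% of all. GS1-GAMMA, a glutamine synthetase by its name, rose by 2.15 there (adjusted p = 5.91e-10).

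Some of these genes passed between lines. NIR was higher in Archer than in Minsoy by 0.35 (SE 0.09, limma adjusted p = 0.00747) and higher in the high yield than in the low yield line by 1.02 (SE 0.13, adjusted p = 4.27e-07). GS1GAMMA2 was lower in Archer than in Minsoy by a difference of -0.84 (SE 0.18, adjusted p = 0.000918) and lower in the high yield than in the low yield line, with a difference of -0.88 (SE 0.25, adjusted p = 0.0248). GDH1 was lower in Archer (-0.71, SE 0.18, adjusted p = 0.00751) and SAT1 lower in the high yield line (-0.54, SE 0.17, adjusted p = 0.0471). The calls of GS1GAMMA2 and SAT1 between the recombinant lines were lost in the fit to those arrays alone (adjusted p = 0.0584 and 0.258) and without the 4 arrays of high actin difference (-0.88 and -0.41, adjusted p = 0.0741 and 0.251). They were also lost without any 1 of 5 arrays for GS1GAMMA2 (adjusted p from 0.0545 to 0.0772) and of 32 for SAT1 (adjusted p from 0.0505 to 0.135). Among the further symbols OAS-TL7, an O-acetylserine thiol-lyase by its name, was lower in Archer than in Minsoy (-0.21, SE 0.07, adjusted p = 0.0321). Its call was lost in the fit to the arrays of the parents alone (0.0591) and without any 1 of 11 arrays (adjusted p from 0.0535 to 0.0687). Whether these differences exceed those of the members was not tested.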

How the data were processed

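Total RNA of whole developing seeds was measured on 54 Affymetrix soybean arrays, 3 in each of 18 groups, grouped by the titles. The deposited values are log2 signals made by the authors with GCRMA, per the submitters' processing notes, with no version given in the sources used here. The values show 3 sets of 18 arrays with different lower ends, so the sets were taken as processed apart and compared only within themselves. The members and all lists were chosen with earlier results of these data known. The number of arrays limits the precision.

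Of 37744 probe sets, 126 Affymetrix controls and 48 ribosomal RNA controls were left out, which with a minimum log2 signal of 5 in 3 arrays gave 26482 tested. One linear model of the 18 group means was fitted with limma 3.58.1 in R 4.3.3 (lmFit, contrasts, eBayes), with 47 contrasts and Benjamini-Hochberg adjustment over all tested probe sets at 0.05. Intervals are 95% intervals of that fit. The fit was tested on simulated data. Tables and plots were made with Python 3.11.15, pandas 2.3.3 and matplotlib 3.10.9. Symbols come from the array annotation, in which 8677 probe sets carry a single symbol, and names were checked in the RefSeq gene table.

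All member probe sets are described, called or not. The main probe set of a gene has the highest mean, the likeness lists give the 2 nearest genes by Pearson correlation, and from the pathway list the 3 largest changes each way and every gene called between lines are named. An array was called out of stage when its score over 200 rising and 200 falling probe sets, taken from the remaining sets of arrays, lay nearer to another length. The limit of 2.5 for the actin difference and both kinds of exclusion were chosen after seeing the data.

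Replicate numbers mark the planting replicate in 2008 by the design text, and nothing pairs them in 2007. Residuals of same-numbered arrays correlated between -0.25 and 0.48 in the parents of 2008, over 0.1 in 2 of 9 pairs. The main model has no replicate block, and fits with it, in all sets and in the arrays of 2008 alone, were alternatives. Other alternatives were the filter, quantile normalisation, median centring, trended and robust eBayes, array weights, fits to the compared arrays alone and each array left out in turn.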

Additional observations from a re-analysis of the deposited data

How the results depend on the processing

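Of the 60 member values in the 5 main comparisons 15 were called, and 14 of these kept direction and side of the threshold under every alternative that gave a value. The exception was ALAAT2 at 5-6 mm relative to 3.5 mm, which without the arrays of high actin difference was -0.067, and 0.20 at 3.5 mm relative to 2 mm. The count of called members was 7 to 8 at 5-6 mm relative to 2 mm, 2 to 5 at 3.5 mm relative to 2 mm, 5 to 8 at 5-6 mm relative to 3.5 mm, 0 between cultivars and 0 to 1 between the recombinant lines when each of 54 arrays was left out in turn. For the pathway list these counts were 9 to 10, 2 to 5, 9, 3 to 4 and 1 to 3.

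Array weights, whose estimation stopped short of its tolerance, called 10 members at 3.5 mm relative to 2 mm, 2 between cultivars and 6 between the recombinant lines, and 8, 5 and 5 genes of the pathway list. No share of all tested probe sets called with array weights is given, so these counts have no background beside them. Between the recombinant lines 1 member was called with no filter and 1 with arrays centred on their median. The count of called members at 3.5 mm relative to 2 mm also changed without the arrays out of stage and without those of high actin difference. Some groups of 3.5 mm then hold 1 array, so those counts rest on single arrays. With the compared arrays alone 1 gene of the pathway list was called between the recombinant lines. With no filter 2 pathway genes were called at 3.5 mm relative to 2 mm. With every probe set of a pathway gene 19 probe sets were called at 5-6 mm relative to 2 mm, 9 at 3.5 mm relative to 2 mm and 15 at 5-6 mm relative to 3.5 mm. Of all tested probe sets 62.5%, 27.7% and 55.2% were called, in the same order. These count probe sets in place of genes, so they cannot be set against the counts of genes.

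Values turned sign under array weights for AK-HSDH in Minsoy of 2008 at 3.5 mm relative to 2 mm (0.25), ASP1 in the low yield line in that step (-0.75), and, between the recombinant lines, ALAAT1 on GmaAffx.93387.1.S1_at at 2 mm (-0.26) and ALAAT3 at 3.5 mm (0.17). Without the arrays of high actin difference the recombinant lines at 3.5 mm relative to 2 mm gave 0.17 for ALAAT2 and 0.16 and 0.21 for the CGS2 probe sets GmaAffx.93405.1.S1_at and GmaAffx.93405.1.S1_s_at. At 5-6 mm relative to 3.5 mm they gave -0.13 for the last of these and -0.10 for TSA. In the low yield line alone the first step gave 0.20 for ALAAT2, 0.0035 for GmaAffx.93405.1.S1_at and 0.051 for TSA, and the second step -0.27 for ALAAT2, -0.14 for GmaAffx.93405.1.S1_s_at and -0.13 for TSA. The cause was not tested.

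In the arrays of 2008 the number marks the planting replicate. A fit to those arrays alone with a replicate block lost both calls of a single line or set at 5-6 mm relative to 2 mm. These were ALAAT1 in the parents of 2008 (adjusted p = 0.0852, limma) and ASP1 in Archer of 2008 (0.0597). The ALAAT1 call was lost in those arrays without the block as well. That of ASP1 held with the block in the fit of all arrays. The losses can therefore not be assigned to the block. A replicate block within all 3 sets, which also takes the numbers of 2007 as pairs, ended 5 of 68 calls over all 47 contrasts and gained none. Beside ALAAT1 in the parents of 2008 (0.0503), these were AK-HSDH in Minsoy of 2007 at 5-6 mm relative to 2 mm (0.0528), both ALAAT1 probe sets in Minsoy of 2007 at 5-6 mm relative to 3.5 mm (0.0516 and 0.0549) and TSA in the low yield line in that step (0.0643). It changed no count of called members in the 5 main comparisons. Same-numbered arrays correlated in residuals between -0.47 and 0.55 in the parents of 2007 and between -0.22 and 0.51 in the recombinant lines. Leaving out both kinds of doubted array empties the recombinant groups of 3.5 mm, so no value exists there.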
